A study of Caenorhabditis elegans with 12 samples.

Results

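The P granule genes examined here were *glh-1*, *glh-2*, *glh-3*, *glh-4*, *pgl-1*, *pgl-2*, *pgl-3* and *deps-1*, 8 genes chosen by name from the 12894 genes of the deposited table, and all 8 were listed and tested. They were measured by messenger RNA sequencing in 12 libraries of whole *Caenorhabditis elegans* (strain N2 Bristol, wild type) at early adulthood. Hatchlings were kept without food, in the developmental halt called L1 arrest, for 1 day (control) or 8 days (starved). They were then fed HT115 bacteria until eggs were seen, with either the empty vector (EV) or RNA interference (RNAi) of *daf-2*, the insulin/IGF receptor gene. The groups are called control EV, starved EV, starved *daf-2* RNAi and control *daf-2* RNAi, each with 3 libraries lettered A, B and C that the design calls biological replicates. Feeding took about 52 h after 1 day and about 68 h after 8 days, so the length of arrest and the time of feeding cannot be told apart. Animals of every group were exposed to vector-carrying bacteria, and no group was fed without arrest.

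P granules are condensates of RNA and protein that lie against the nuclear pores of germ cells and are passed from the oocyte to the germ cells of the next generation. They hold messenger RNAs and the small RNA machinery of the germline, and animals that lack their main proteins become sterile, most of all at raised temperature. GLH proteins are DEAD-box RNA helicases of the Vasa family. PGL proteins associate with one another and with RNA to form the scaffold, and DEPS-1 promotes the assembly of PGL-1 into granules and the normal accumulation of *glh-1* RNA. The genes are transcribed in the germline, which in the early adult holds stem cells, meiotic cells and growing oocytes.

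After 8 days of arrest all 8 genes had lower mean levels on EV than after 1 day, and *glh-1*, *pgl-1*, *pgl-2* and *glh-3* fell past the test's threshold. The falls of *glh-1* and *pgl-1* were the deepest, where the means fell by 41.5% and 39.8%. In starved animals the libraries labelled *daf-2* RNAi lay above the EV libraries for all 8 genes without overlap, and *deps-1*, *pgl-1*, *glh-2* and *glh-1* rose past the threshold. No member passed the threshold for *daf-2* RNAi in control animals, or for arrest length on *daf-2* RNAi.

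Of the 8 genes, 5 lie on chromosome I of the WBcel235 assembly. *glh-1* (T21G5.3) lies at I:6854478-6857536 on the plus strand with 7 exons, *glh-2* (C55B7.1) at I:6513928-6517507 on the plus strand with 9, *glh-3* (B0414.6) at I:5792321-5795114 on the minus strand with 6, and *glh-4* (T12F5.3) at I:3727027-3731179 on the plus strand with 9. *deps-1* (Y65B4BL.2) lies at I:506473-509056 on the plus strand with 12 exons. *pgl-1* (ZK381.4) lies at IV:6974441-6977318 on the minus strand with 9 exons, *pgl-2* (B0523.3) at III:8670543-8675435 on the minus strand with 8, and *pgl-3* (C18G1.4) at V:4755979-4758587 on the plus strand with 8. Exons of *pgl-2* share 139 bases with *fli-1* on the same strand, and exons of *deps-1* share 109 bases with Y65B4BL.7 on the opposite strand. The libraries do not keep strand, so reads in these stretches cannot be assigned to one gene. *fli-1* was at 155 CPM in control EV and 131 CPM in starved EV libraries (limma, adjusted p = 0.203), and Y65B4BL.7 was at 0.724 CPM in control EV and 1.14 CPM in starved EV libraries. The *glh* genes are paralogs, and how reads matching several of them were counted is not given in the sources used here.

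Values are the deposited normalised read counts, scaled to the library size of each sample (CPM). The libraries held 21150912 to 30037731 reads over the listed genes, and a member had between 921 and 18952 reads in a library, with a counting error of 0.763% to 3.07% of the group mean. The spread between libraries was above that error in 31 of 32 combinations of gene and group; the exception was *pgl-2* in starved EV, with a spread of 2.05% and a counting error of 3.07%. The germline was represented in every library: the 26 genes of a list of meiosis factors summed to between 1442 and 2176 CPM. The level of *daf-2* was higher, not lower, in the library with the RNAi label in 6 of 6 pairs matched by letter, so directions given for *daf-2* RNAi follow the labels. The levels of whole animals do not separate fewer germ cells from less RNA per germ cell, and these cannot be told apart here. Each p-value sets a difference between groups against the spread between the libraries as labelled, with no pairing by letter in the main fit.

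The transcripts differed in abundance when CPM was divided by coding length. In control EV libraries *glh-1* was at 269 ± 16.3 CPM per kb of coding sequence (SD, n = 3) and *pgl-1* at 260 ± 13.2, and the ranges of the 2 genes overlapped. *deps-1* followed at 130 ± 11.2 CPM per kb and *pgl-3* at 123 ± 19.2, again overlapping each other and lying below *pgl-1* in every library. *glh-2*, at 85.2 ± 6.67 CPM per kb, lay below *pgl-3* and above the last 3 genes without overlap. *glh-4* at 44.4 ± 3.97, *glh-3* at 43.3 ± 1.72 and *pgl-2* at 41.1 ± 4.17 CPM per kb could not be ordered beyond their spread.

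The order was the same in the other 3 groups, with exchanges only between overlapping neighbours. In starved EV libraries *glh-1* was at 157 ± 24.9 and *pgl-1* at 156 ± 24.5 CPM per kb, both above *deps-1* (96.6 ± 14.2) in every library, while *pgl-2* was lowest at 26.8 ± 0.55. *pgl-2* lay below *glh-3* without overlap in these 3 groups, which it did not in control EV. Divided by the longest transcript instead of the coding sequence, *pgl-1* was ahead of *glh-1* in all 4 groups (248 ± 12.6 against 222 ± 13.5 CPM per kb in control EV). The 8 genes together made up 0.136% to 0.262% of a library's signal, with a sum of 2276 ± 106 CPM in control EV, 2412 ± 290 in control *daf-2* RNAi, 2129 ± 158 in starved *daf-2* RNAi and 1492 ± 254 in starved EV libraries.

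**Figure D1:**
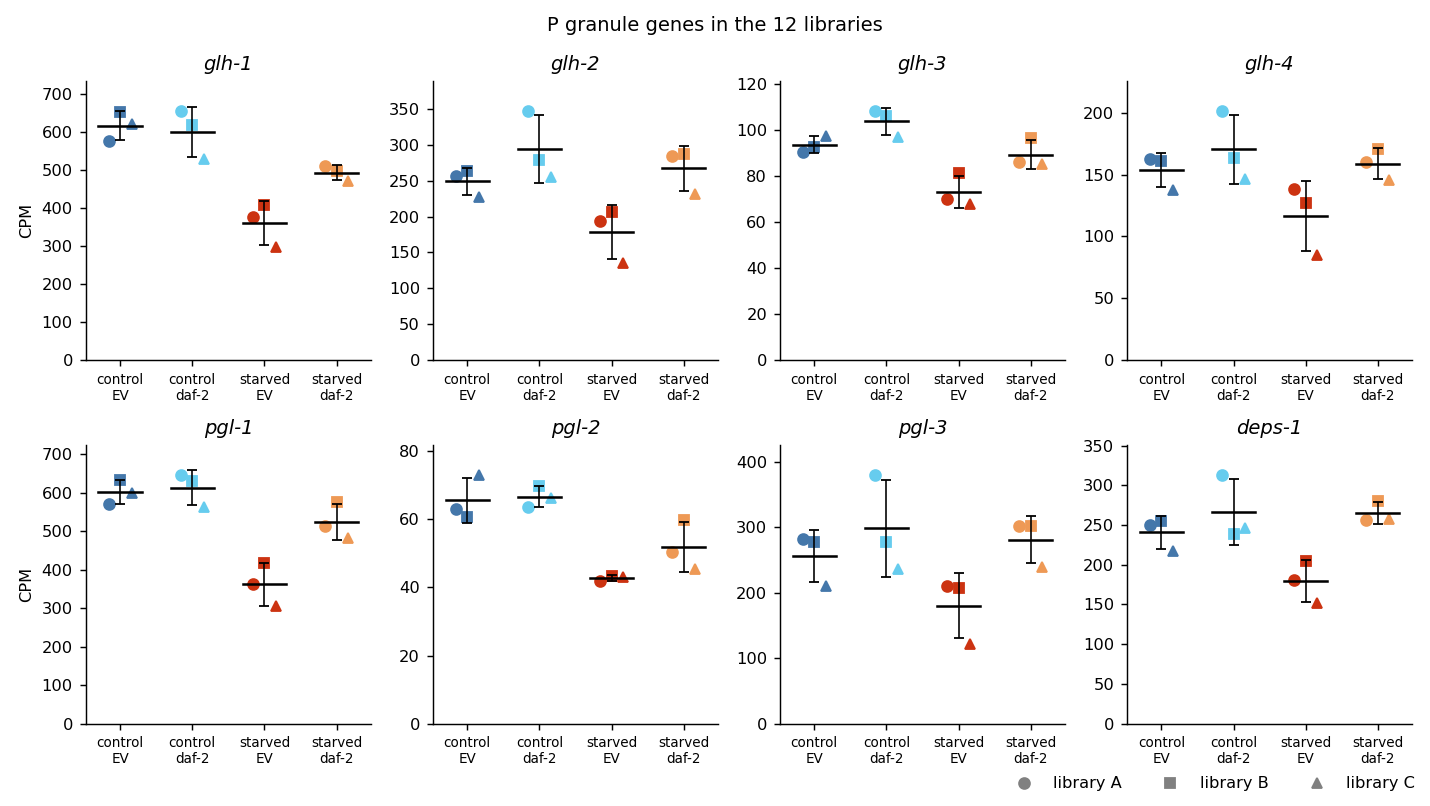
Level in CPM (linear axis from 0, a different scale in each panel) of the 8 P granule genes in the 4 groups of 3 libraries; symbols mark the replicate letter, bars the group mean and whiskers the SD. The 3 starved EV libraries lay below the 3 control EV libraries for every gene but *glh-4* and *pgl-3*, and below the 3 starved *daf-2* RNAi libraries for every gene.

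The first comparison sets animals with 8 days of arrest against those with 1 day, both fed EV bacteria. Among the helicase genes, *glh-1*, whose product is a constant component of P granules and touches the nuclear pore through its phenylalanine-glycine repeats, was at 576, 651 and 620 CPM in control EV libraries A, B and C and at 376, 408 and 297 CPM in starved EV libraries. The groups did not overlap, and the mean fell by 41.5% (log2 difference -0.78 ± 0.14 SE, limma adjusted p = 0.00452). *glh-3*, which encodes a helicase without these repeats, was at 90.3, 92.8 and 97.6 CPM in control and at 70.2, 81.2 and 68.1 CPM in starved libraries. Its groups did not overlap either, and its smaller fall of 21.9% also passed the threshold (log2 difference -0.35 ± 0.11, limma adjusted p = 0.042). The call on *glh-3* held in 4 of 12 fits that left out 1 library, and was lost without any 1 control EV library, without B or C of control *daf-2* RNAi, without A or C of starved EV, or without A of starved *daf-2* RNAi (adjusted p up to 0.127). With quantile normalization its log2 difference was -0.19 (adjusted p = 0.184).

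*glh-2* and *glh-4*, the other repeat-bearing helicase genes, did not pass. *glh-2* was at 257, 263 and 227 CPM in control EV and at 193, 206 and 135 CPM in starved EV libraries, without overlap (log2 difference -0.50, 95% interval -0.88 to -0.13, limma adjusted p = 0.0611). *glh-4* was at 163, 161 and 138 CPM in control and at 138.2, 127 and 84.7 CPM in starved libraries, where starved library A just reached the lowest control (log2 difference -0.42, interval -0.81 to -0.04, adjusted p = 0.106). In both genes starved EV library C was lowest by a wide margin. *glh-2* passed without starved EV B (adjusted p = 0.0408), and *glh-4* in no leave-one-out fit.

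Among the scaffold genes, *pgl-1* was at 571, 632 and 599.9 CPM in control EV and at 362, 418 and 305 CPM in starved EV libraries A, B and C. These values ran beside those of *glh-1* library by library, the groups did not overlap, and the mean fell by 39.8% (log2 difference -0.74 ± 0.14, limma adjusted p = 0.00553). *pgl-2*, the family member that lacks the RGG repeats of the other two, was at 63.0, 60.7 and 73.2 CPM in control and at 41.8, 43.5 and 43.1 CPM in starved libraries. The starved libraries of *pgl-2* were the tightest set of the 8 genes, closer together than counting error, and the mean fell by 34.8% (log2 difference -0.60 ± 0.12, limma adjusted p = 0.00834). *pgl-3*, the second scaffold protein of embryonic granules, was at 282, 277 and 210 CPM in control and at 211, 207 and 122 CPM in starved libraries, so that starved library A reached control library C (log2 difference -0.54, interval -1.03 to -0.04, adjusted p = 0.108). *deps-1* was at 251, 255 and 217 CPM in control and at 181, 205 and 152 CPM in starved libraries, without overlap and short of the threshold (log2 difference -0.43, interval -0.74 to -0.12, adjusted p = 0.0553).

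Thus 4 of 8 members were called lower, where 6.12% of all 12830 genes tested were called lower and 17.7% were called in either direction. Groups did not overlap for 6 of 8 members, all with starved EV below control EV, as for 16.7% of all genes. The median log2 difference was -0.52 over the members and 0.03 over all genes. Without starved EV C the members' median was -0.32, and the differences of *glh-2*, *glh-4* and *pgl-3* were -0.31, -0.21 and -0.28. *glh-1*, *pgl-1* and *pgl-2* were called in all 12 fits that left out 1 library (adjusted p at most 0.0276, 0.0313 and 0.0425). The number of members called in those fits was 3 to 6, with 6 when starved EV library B was left out.

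**Figure D2:**
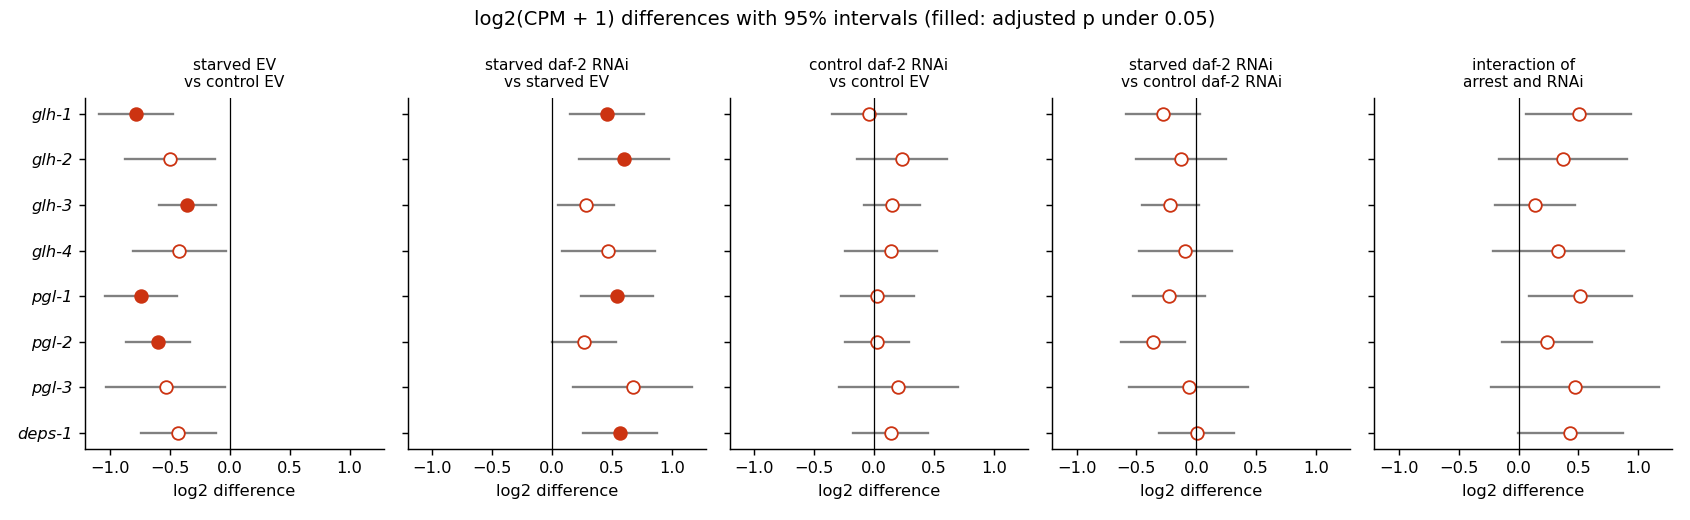
Differences in log2(CPM + 1) for the 8 genes in the 5 comparisons, with 95% intervals from the limma fit; filled points have an adjusted p under 0.05. All points of the starved EV against control EV panel lie below 0, from -0.78 to -0.35, and all points of the starved *daf-2* RNAi against starved EV panel lie above 0, from 0.27 to 0.67.

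The second comparison asks what *daf-2* RNAi during feeding changes in animals arrested for 8 days. It shares the starved EV libraries with the first, so the values are set side by side and the directions of the 2 comparisons are not independent. In starved *daf-2* RNAi libraries A, B and C *pgl-1* was at 514, 575 and 482 CPM, above all starved EV libraries, and its mean rose by 44.9% (log2 difference 0.54 ± 0.14, limma adjusted p = 0.0249). *deps-1* was at 256, 281 and 257 CPM, above the highest starved EV value of 205 CPM, and rose by 47.5% (0.57 ± 0.14, limma adjusted p = 0.0225). *glh-2* was at 284, 287 and 231 CPM, with even library C above all starved EV libraries, and rose by 50.2% (0.60 ± 0.17, limma adjusted p = 0.0368). *glh-1* was at 509, 497 and 471 CPM, the tightest set among the 4 groups of this gene, and rose by 36.6% (0.46 ± 0.14, limma adjusted p = 0.0466).

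The other 4 members were higher in each of the 3 letter pairs without passing the threshold. *pgl-3* was at 302, 301 and 239.8 CPM, and its log2 difference of 0.67 was the largest of the 8 with the widest interval (0.18 to 1.17, limma adjusted p = 0.0613). Without starved EV C it was 0.42, below *deps-1* at 0.45. *glh-4* was at 160.2, 171 and 146 CPM (0.47, interval 0.08 to 0.86, adjusted p = 0.0853, and 0.26 without starved EV C). *glh-3* was at 86.1, 96.5 and 85.2 CPM (0.29, interval 0.05 to 0.52, adjusted p = 0.0854). *pgl-2* was at 50.6, 59.99 and 45.4 CPM and had the smallest difference (0.27, interval -0.000338 to 0.53, adjusted p = 0.138). The starved *daf-2* RNAi library C of *pgl-2* was 1.05 times its EV partner, the smallest ratio of any member in any of the 3 letter pairs.

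Here 4 of 8 members were called higher, where 3.8% of all genes were called higher and 15.7% in either direction. All 8 had groups that did not overlap, as had 13.6% of all genes in the upward direction, and the median log2 difference was 0.51 over the members and 0.00 over all genes. With the replicate letter as a block, all 8 members were called higher (limma adjusted p from 0.000841 to 0.0489), where 23.7% of all genes were. The block was shared by all 4 groups, so it also joined letters across arrest lengths, where they were not taken as pairs. In that fit *glh-2*, *pgl-1* and *pgl-3* had adjusted p of 0.000841, 0.000851 and 0.000873. Without the block the calls rested on single libraries: no member was called without library A or C of starved EV or library B of starved *daf-2* RNAi, 1 without starved *daf-2* RNAi A, and 2 without control EV B or control *daf-2* RNAi B. *deps-1* was called in 9 of 12 such fits, *pgl-1* in 8, *glh-2* in 6 and *glh-1* in 2.

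In control animals *daf-2* RNAi went with no call among the 8 members, where 1.39% of all genes were called. The log2 differences ran from -0.04 for *glh-1* (interval -0.35 to 0.27) to 0.23 for *glh-2* (interval -0.15 to 0.60), with no member at an unadjusted p under 0.05 in limma and none called by edgeR or DESeq2. Over all genes 1193 had an unadjusted p under 0.05. *glh-1* was at 655, 619 and 527 CPM and *pgl-1* at 647, 629 and 563 CPM in control *daf-2* RNAi libraries A, B and C, overlapping the control EV libraries. For every member but *pgl-2* this library A was the highest of all 12. It was at 348, 202, 380.5 and 314 CPM for *glh-2*, *glh-4*, *pgl-3* and *deps-1*, and at 108 CPM for *glh-3*. The interval of *glh-2* just reached the log2 difference of 0.60 called in starved animals. That of *glh-1* ended below the 0.46 called for it in starved animals.

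On *daf-2* RNAi, arrest length also gave no member call, where 0.701% of all genes were called. The log2 differences of starved against control animals ran from -0.36 for *pgl-2* (interval -0.63 to -0.10, limma adjusted p = 0.296) to 0.00 for *deps-1* (interval -0.31 to 0.31, adjusted p = 0.999). *pgl-2* was at 63.8, 69.95 and 66.4 CPM in the control libraries, all above the starved ones, and it was the only member with an unadjusted p under 0.05 (0.0117), which 1296 of all genes had. The starved libraries also lay wholly below the control libraries for *glh-1* (-0.28, adjusted p = 0.544) and *glh-3* (-0.22, adjusted p = 0.541), so 3 of 8 members did not overlap, as did 5.73% of all genes in that direction. edgeR and DESeq2 called no member.

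Whether the effect of RNAi differed between arrest lengths was tested as an interaction. The estimates were positive for all 8 members, from 0.14 for *glh-3* (interval -0.19 to 0.47) to 0.51 for *pgl-1* (interval 0.08 to 0.94), and none was called, as none (0%) of all 12830 genes was by limma. The lowest adjusted p was 0.663 without and 0.0789 with the block, both for *pgl-1*. *pgl-1* and *glh-1* had unadjusted p of 0.0227 and 0.0281, and 912 of all genes had one under 0.05. edgeR called none and DESeq2 called 4 genes, no member among them. The differences seen in starved animals are thus not shown to be absent from control animals.

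The members were also read against the mean of the meiosis genes in the same library. The mean log2 level of these 26 genes, which act in germ cells and encode chromosome axis, synapsis and crossover proteins, was 0.41 lower in starved EV than in control EV libraries. Relative to that mean, *glh-1* was at 3.15, 3.32 and 3.19 (log2) in control EV libraries A, B and C and at 2.97, 2.91 and 2.67 in starved EV libraries, a difference of -0.37 beyond the meiosis genes. *pgl-1* was at 3.13, 3.28 and 3.14 in control and at 2.91, 2.94 and 2.71 in starved libraries on that scale, a difference of -0.33. Both genes thus lay lower in starved EV animals also in proportion to meiotic transcripts, with no overlap between the groups.

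*pgl-2* was the third such gene, at -0.03, -0.08 and 0.13 relative to the meiosis mean in control and at -0.17, -0.29 and -0.09 in starved libraries, a difference of -0.19. Only 0.631% of all genes lay without overlap below the control level on this scale. The other 5 members did not: *glh-2* (-0.09), *glh-4* (-0.01), *pgl-3* (-0.13) and *deps-1* (-0.02) overlapped, and *glh-3* was 0.06 higher without overlap, as 50.6% of all genes were. These are descriptions of 3 against 3 libraries with no test, and no reference other than the meiosis genes was tried.

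The same scale separated the members differently in the RNAi comparison of starved animals, where the meiosis mean was 0.35 higher on *daf-2* RNAi. Relative to it *deps-1* was 0.22 and *pgl-1* 0.19 higher without overlap, as were 1.33% of all genes. *glh-1* was 0.11, *glh-2* 0.25, *glh-4* 0.12 and *pgl-3* 0.32 higher and *pgl-2* 0.08 lower with overlapping groups, while *glh-3* was 0.06 lower without overlap, as 39.6% of all genes were. *pgl-1* at 3.06, 3.05 and 3.02 in starved *daf-2* RNAi libraries had an SD of 0.0196 on this scale, against 0.128 in starved EV libraries. In the arrest comparison on *daf-2* RNAi, *pgl-2* again lay below without overlap (-0.23, as 1.71% of all genes), and no other member did. In the RNAi comparison of control animals no member lay apart, where 3.52% of all genes lay higher and 13.4% lower.

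**Figure D3:**
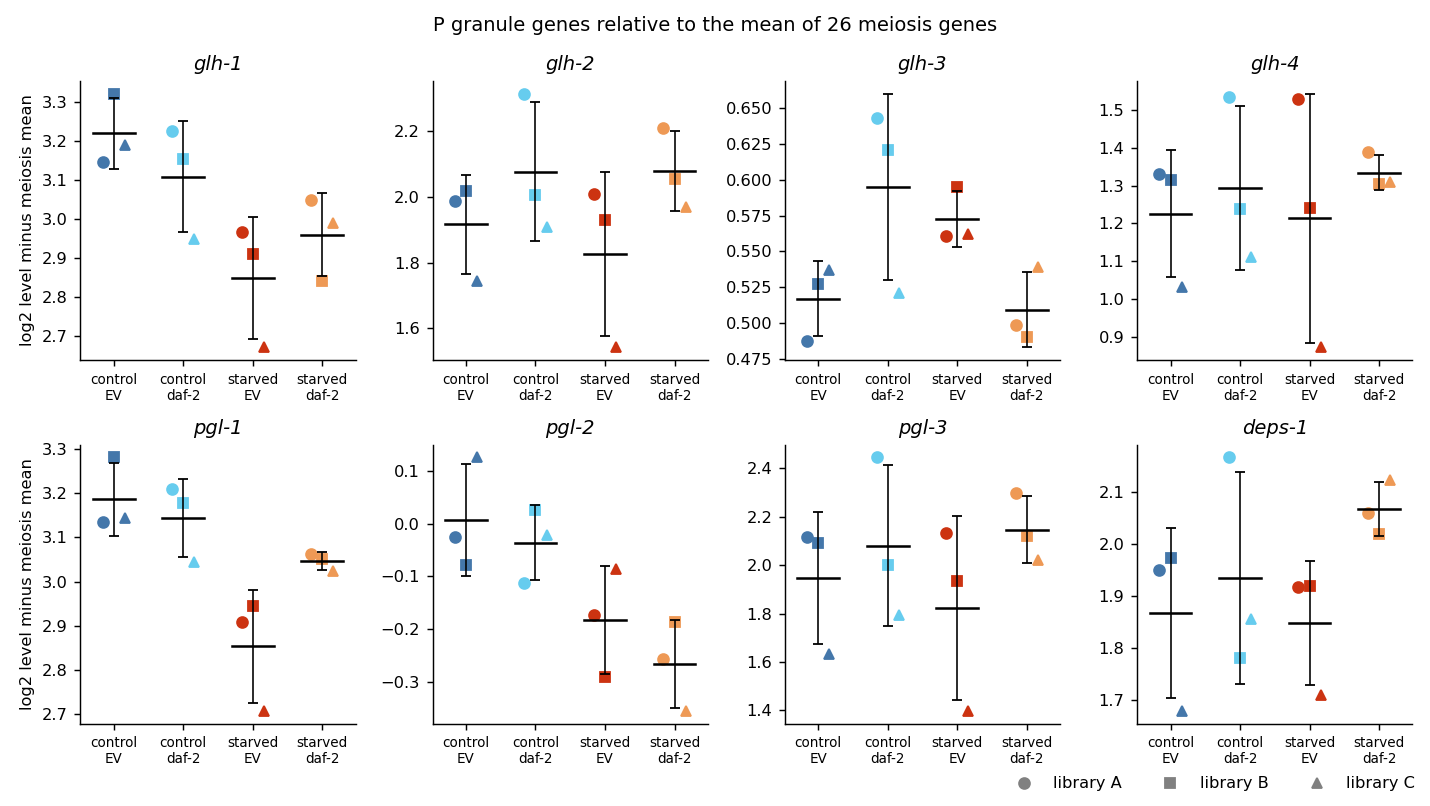
Level of each gene on the log2(CPM + 1) scale minus the mean of 26 meiosis genes in the same library (axes differ between panels and do not start at 0); symbols mark the replicate letter, bars the group mean and whiskers the SD. *glh-1*, *pgl-1* and *pgl-2* are lower in the 3 starved EV than in the 3 control EV libraries without overlap, by 0.37, 0.33 and 0.19. *glh-2*, *glh-4*, *pgl-3* and *deps-1* have lower means with overlapping libraries, and *glh-3* is higher.

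The members differed in how they varied between libraries of the same group, without falling into separate sets. *glh-1* and *pgl-1* kept the most constant ratio of the 28 pairs of members, with a log2 ratio between -0.21 and 0.06 over the 12 libraries (SD 0.0734). Their levels correlated with r = 0.98 over the 12 libraries and r = 0.90 after the group means were removed, given as a description, since all pairs share library and scaling. *glh-2*, *glh-4*, *pgl-3* and *deps-1* moved together within groups, with r from 0.85 to 0.98 over their 6 pairs. *glh-1* was about as close to some of them, with r = 0.86 to *glh-2*, 0.82 to *glh-4* and 0.81 to *pgl-3*, and *pgl-1* had r = 0.84 to *glh-2*. *glh-2*, *glh-4*, *pgl-3* and *deps-1* were lowest in library C in both EV groups. In control *daf-2* RNAi they were highest in library A, as were *glh-1*, *pgl-1* and *glh-3*.

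*pgl-2* went its own way within groups, with r between -0.19 and 0.55 against the other 7 members. In control EV libraries *pgl-2* was highest in library C, where *glh-2*, *glh-4*, *pgl-3* and *deps-1* were lowest. The coefficient of variation within starved EV libraries was 2.05% for *pgl-2* and 27.8% for *pgl-3*, the extremes of the 8 genes in that group. The spread of *pgl-3* was large in each group, from 12.7% in starved *daf-2* RNAi to 27.8% in starved EV libraries.

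**Figure D4:**
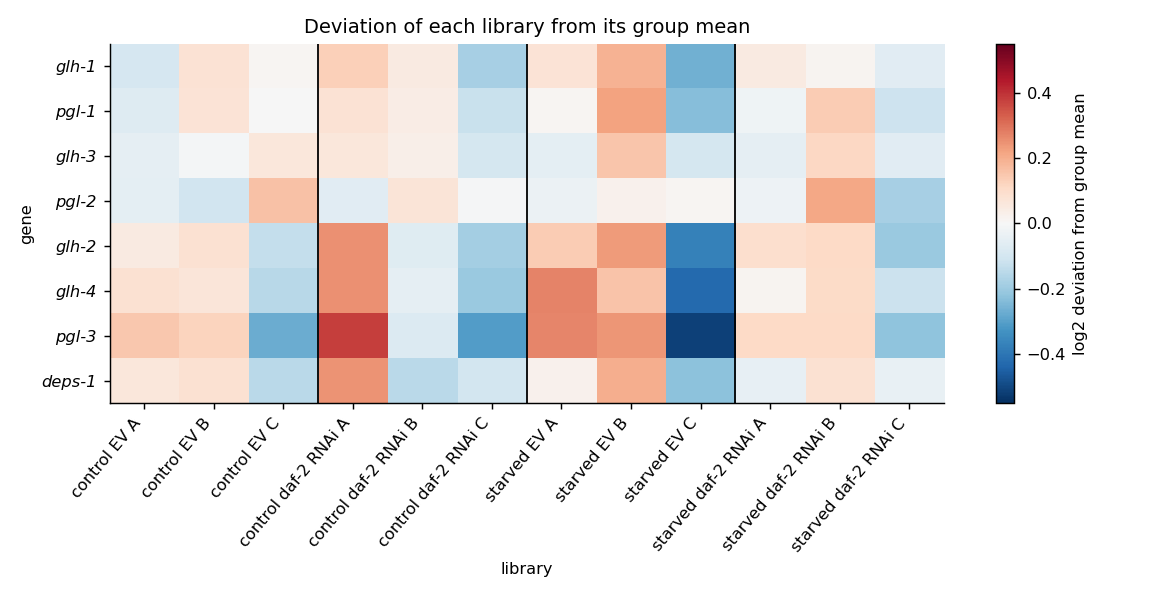
Deviation of each library from the mean of its group on the log2(CPM + 1) scale, genes in rows and libraries in columns (red above, blue below the group mean; lines part the groups). All genes but *pgl-2* have their lowest deviation in library C of starved EV. The highest deviation of *glh-2*, *pgl-3* and *deps-1* is in library A of control *daf-2* RNAi. That of *glh-1*, *pgl-1* and *glh-3* is in library B of starved EV, and that of *glh-4* in library A of starved EV. *pgl-3* has the widest deviations (-0.51 and 0.38), and *glh-1* runs from -0.27 to 0.19.

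The genes whose profile over the 12 libraries was most like the mean of the scaled members, among the 7468 genes averaging 10 CPM or more, were Y32B12B.2 (r = 0.985), *ccep-97* (0.983), *csr-1* (0.982), *simr-1* (0.98) and *vps-35* (0.978). *csr-1* encodes a germline Argonaute that sits in P granules and *simr-1* a Tudor-domain protein of neighbouring small RNA foci. For *glh-1* alone the most similar gene was the member *pgl-1* (0.978), followed by B0564.1 (0.961), *nifk-1* (0.959) and K04C2.2 (0.958). For *pgl-1* they were B0564.1 (0.985), *ubc-6* (0.982) and F26E4.4 (0.98), with *glh-1* in rank 5. Against the mean of all members, *pgl-2* ranked 1524, and the other members ranked from 9 (*pgl-1*) to 383 (*pgl-3*, r = 0.917). Each member is itself a part of that mean. These values are descriptions, since all genes share the libraries, the groups and the scaling.

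The other genes of germ granules and of the germline, from lists chosen with earlier results of these data known, gave the setting of these differences. In starved EV against control EV 6.12% of all genes were called lower and 11.5% higher. All 19 other germ granule proteins had negative log2 differences in starved EV against control EV, with a median of -0.36. Of the 19, 3 were called lower and none higher. These were *spn-4*, an RNA-binding regulator of maternal messages (from 853 ± 30.6 to 588 ± 76.6 CPM, -0.54, limma adjusted p = 0.0253), and *mip-1* and *mip-2*, which encode LOTUS-domain proteins that anchor GLH-1 (-0.48 and -0.46, adjusted p = 0.0341 and 0.0306). All 16 small RNA factors of germ granules were negative, with a median of -0.36. The 2 called lower were *simr-1* (-0.58, limma adjusted p = 0.0238) and *csr-1* (from 551 ± 42.4 to 380 ± 58.4 CPM, -0.54, adjusted p = 0.0257). Of 8 genes of P granule assembly and removal none was called, with a median of 0.03 and the largest difference in *epg-2*, an adaptor for the autophagy of PGL granules in somatic cells of the embryo (0.71, adjusted p = 0.244).

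Among 16 stem cell and translational regulators 14 were negative and 2 positive. Of the 16, 3 were called lower, including the PUF-domain genes *fbf-2* (-0.60, limma adjusted p = 0.0159) and *puf-8* (-0.41, adjusted p = 0.0309), and 1 was called higher. The riser was *fog-3*, which specifies sperm fate, from 1.19 ± 0.257 to 7.46 ± 1.22 CPM (1.95, adjusted p = 0.000578). Of the 26 meiosis genes 10 fell, with all 26 negative and a median of -0.41, among them *syp-4* of the synaptonemal complex (-0.57, adjusted p = 0.0398), the pairing centre gene *zim-3* (-0.56, adjusted p = 0.00631) and the axis gene *htp-3* (-0.51, adjusted p = 0.0346). All 7 germline chromatin genes were negative, with a median of -0.33. The 1 called lower was the chromodomain gene *mrg-1* (-0.38, limma adjusted p = 0.048), where 6.12% of all genes were called lower. All 15 synMuv B genes, whose products keep germline genes silent in somatic cells, were negative, with a median of -0.31. Of the 15, 4 were called lower, among them the heterochromatin protein gene *hpl-2* (-0.45, limma adjusted p = 0.0282) and *lin-37* and *lin-54* of the DREAM complex (-0.40 each, adjusted p = 0.0458 and 0.0413).

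The counts of these lists rested on single libraries, unlike the calls on *glh-1*, *pgl-1* and *pgl-2*. Without library B or C of control EV or library A or C of starved EV, at most 2 genes of any of the 7 lists were called lower. Among the meiosis genes the count was then 2, 1, 2 and 1 in place of 10, and among the other germ granule proteins it was 0 in place of 3. Their median log2 differences stayed between -0.48 and -0.37 for meiosis and between -0.47 and -0.25 for the other germ granule proteins over the 12 leave-one-out fits. *fog-3* was called higher in all 12.

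In starved animals on *daf-2* RNAi against EV, all 19 other germ granule proteins were positive, with a median of 0.58. Of the 19, 9 were called higher and none lower. The largest called rises were in *meg-1* (from 118 ± 25.8 to 212 ± 25.4 CPM, 0.85, limma adjusted p = 0.0198), *meg-2* (0.76, adjusted p = 0.0296) and *meg-3* (0.76, adjusted p = 0.0366), which encode disordered proteins that stabilise P granules in the embryo. All 16 small RNA factors were positive, with a median of 0.39. Of the 16, 4 were called higher, among them the Argonaute genes *wago-1* (0.56, limma adjusted p = 0.0401) and *csr-1* (0.49, adjusted p = 0.0394). All 26 meiosis genes were positive (median 0.35), and 4 were called higher, led by *htp-3* (0.63, limma adjusted p = 0.017). Of the assembly and removal genes 6 of 8 were positive, and of the stem cell regulators 14 of 16. In the first list 1 was called higher, *mex-6*, which encodes a polarity protein that dissolves P granules at the anterior of the embryo (0.55, limma adjusted p = 0.0366). In the second 2 were called higher, *gld-3* (0.55, adjusted p = 0.016) and *puf-8* (0.37, adjusted p = 0.0457). All 7 germline chromatin and all 15 synMuv B genes were positive. These lists had 1 gene called higher each, *mes-6* (0.47, limma adjusted p = 0.0237) and *efl-1* (0.45, adjusted p = 0.0416). Over all genes 3.8% were called higher in this comparison.

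These counts of calls too depended on libraries: without library A or C of starved EV or B of starved *daf-2* RNAi, at most 1 gene of any of the 7 lists was called higher. Without starved *daf-2* RNAi A 4 of the other germ granule proteins were. With the replicate block all 19 other germ granule proteins, 23 of 26 meiosis genes and 14 of 16 small RNA factors were called higher. In that fit 23.7% of all genes were called higher. Without the block no gene of the 7 lists was called in control animals or in the arrest comparison on *daf-2* RNAi. With it, 3 of 19 other germ granule proteins were called higher on *daf-2* RNAi in control animals, as were 229 of all 12830 genes, and no gene of the other 6 lists was. *meg-4* had the largest difference among the granule proteins in control animals (0.52, limma adjusted p = 0.162).

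**Figure D5:**
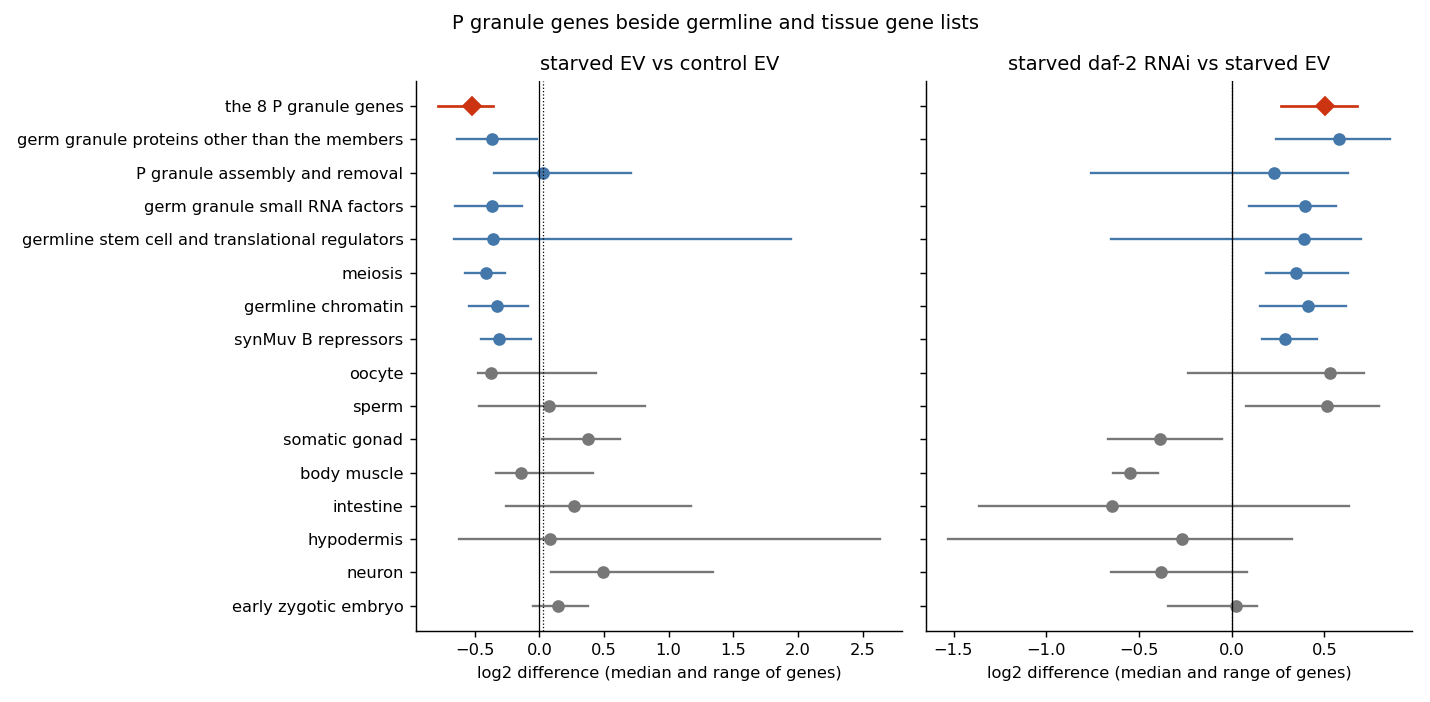
Median (point) and range (line) of the log2 differences of the genes in each list, for starved EV against control EV (left) and starved *daf-2* RNAi against starved EV (right); diamonds are the 8 P granule genes, blue lists are pathways, grey lists are cell type markers, and the dotted line is the median of all genes. The members' median of -0.52 on the left is lower than that of each list, but without starved EV C it is -0.32, above meiosis at -0.38. Their median of 0.51 on the right lies below those of the other germ granule proteins (0.58), the oocyte markers (0.53) and the sperm markers (0.515).

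Markers of other cells were read beside these values. The 14 oocyte markers summed to 7350 to 10008 CPM in starved EV against 8688 to 11015 CPM in control EV libraries, with none called and a median of -0.37. On *daf-2* RNAi they summed to 10971 to 12723 CPM in starved animals, where 12 of 14 were positive against starved EV. Of the 14, 5 were called higher, among them *oma-1* (0.57, limma adjusted p = 0.0163) and *oma-2* (0.59, adjusted p = 0.0212), which encode regulators of oocyte maturation. Over all genes 3.8% were called higher. No oocyte marker was called without library A or C of starved EV or B of starved *daf-2* RNAi. The 6 sperm markers that were listed summed to 27.9 to 97.3 CPM over the 12 libraries, with none called, and 7 more were not analysed here. The 5 listed markers of the early zygotic embryo summed to 13.6 to 24.1 CPM in control EV and 21.1 to 26.9 CPM in starved EV libraries, with none called, and 3 more were not analysed here.

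The somatic markers called in starved EV against control EV were all higher, where 11.5% of all genes were called higher. The lists as wholes were less uniform. Their median log2 differences were 0.49 for neurons, 0.38 for somatic gonad, 0.27 for intestine, 0.08 for hypodermis and -0.14 for muscle. Negative were 5 of 8 muscle, 3 of 6 hypodermis and 3 of 10 intestine markers, and no neuron or somatic gonad marker. The 9 neuron markers summed to 364 to 522 CPM in starved EV and to 311 to 351 CPM in control EV libraries, and 2 of 9 were called higher. The 6 somatic gonad markers summed to 197 to 242 CPM in starved EV and 155 to 209 CPM in control EV libraries, with 2 of 6 higher. Hypodermis markers had 1 of 6 higher, with sums of 1384 to 1545 CPM against 1795 to 2501 CPM, and intestine markers 2 of 10 higher, with sums of 1966 to 3378 CPM against 2246 to 3486 CPM. The 8 body muscle markers, none called, were highest in library A of each group, at 6353 CPM in control EV and 7554 CPM in starved EV against 1673 to 3081 CPM in libraries B and C of these groups. In starved animals on *daf-2* RNAi against EV, where the members were higher, all 5 somatic lists had negative medians, and 11.9% of all genes were called lower. Intestine markers had 4 of 10 lower and 1 higher, with a median of -0.65 and sums of 1394 to 2293 CPM on *daf-2* RNAi. Hypodermis markers had 2 of 6 lower, with a median of -0.27 and sums of 842 to 1034 CPM, and somatic gonad markers 1 of 6 lower, with a median of -0.39 and sums of 168 to 218 CPM. Muscle markers, with a median of -0.55 and all 8 negative, and neuron markers, with a median of -0.38, had no call. The somatic markers thus had the opposite sign to the members in the medians of this comparison. The muscle median ran from -1.12 to 0.11 when 1 library was left out, and hypodermis markers were 3 negative and 3 positive. All 5 medians were also negative for *daf-2* RNAi in control animals, where no member was called. They were -0.45 for muscle, -0.31 for intestine, -0.19 for neurons, -0.12 for hypodermis and -0.01 for somatic gonad. Those of muscle and somatic gonad turned sign in some leave-one-out fits. The part of these cells in the members' differences was not tested.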

How the data were processed

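Messenger RNA was sequenced from 12 libraries, which took 500 ng of total RNA and 12 cycles of PCR, per the labels' protocols. Per the submitters' processing notes, edgeR, HTSeq 0.12.4 and Bowtie 1.1.2 were used, with no role stated. The authors' build and annotation are not stated in the labels or headers. The deposited signal is 1 value per gene and library, read counts scaled to library size (CPM), with column sums from 889133 to 1097908; CPM was assumed when the tests were planned, and the test was kept. Dividing each column by its step gave whole reads for 100% of values (within 0.01 read), which served as depth and for edgeR 4.0.16 and DESeq2 1.42.0. They cover listed genes only.

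The test covered the 12830 genes that reached 1 CPM in 3 or more libraries (64 were removed) on log2(CPM + 1), so fold changes are on that scale, with limma 3.58.1 in R 4.3.3. The fit had a trend and 4 groups, two-sided tests, and Benjamini-Hochberg adjustment within each of 5 comparisons at 0.05. It was tested on simulated data. Alternatives were the replicate letter as a block, quantile normalization, both count tools, a pseudocount of 0.25, no filter, and leaving out each library. Names of 12716 genes were matched through RefSeq locus tags (178 were not), and positions and lengths are from the WBcel235 annotation.

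Deviations of same-lettered libraries from their group means correlated at 0.821, 0.596 and 0.593 (starved) and 0.695, 0.55 and 0.541 (control) for letters A, B and C across RNAi. The letters, which the labels give, were therefore taken as pairs there when values were compared by letter. The main fit did not use these pairs, so its p-values are unpaired, and only the fit with the block used the letters. Across arrest lengths the EV correlations were 0.645 for A, 0.0848 for B and 0.659 for C. With *daf-2* RNAi they were 0.487, -0.0952 and 0.579 in the same order. Letters A and C thus correlated there too. Because letter B did not, the letters were not taken as pairs across arrest lengths. Replicates correlated at 0.972 to 0.994 on the log2 scale.

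The 8 members, the 15 gene lists and the tests were chosen with earlier results of these data known. Genes named were all members; from each list and comparison up to 3 called genes with the largest change, or the largest if none was called, of which a selection made with their values known is printed; the 5 genes most like the mean of the scaled members and 3 each for *glh-1* and *pgl-1*; and *daf-2*. The neighbours *fli-1* and Y65B4BL.7 were added because their exons overlap members. Of the 185 listed names 14 were not analysed here.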

Additional observations from a re-analysis of the deposited data

How the results depend on the processing

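The calls of *glh-1*, *pgl-1* and *pgl-2* in starved EV against control EV held under all 6 other settings and all 12 leave-one-out fits, with log2 differences from -0.88 to -0.55, -0.85 to -0.51 and -0.65 to -0.50. With the replicate block, the letters not having been taken as pairs there, 8 members and 6371 genes were called, against 4 and 2266. Quantile normalization, which moved the median of all genes from 0.03 to -0.07, called 1484 genes, with a median over the members of -0.34. For starved *daf-2* RNAi against starved EV the block called 8 members and 6151 genes, against 4 and 2017. The share of higher calls was 65.4% and 24.2% in these comparisons, 47.0% and 49.4% with the block, 57.0% and 42.3% with quantile normalization and 53.6% and 40.1% by DESeq2. For control *daf-2* RNAi against control EV, 745 genes were called with the block and 383 by DESeq2, against 178. For starved against control animals on *daf-2* RNAi, 481 were called with the block, 54 with quantile normalization and 372 by DESeq2, against 90. The share of higher calls was then 47.8% and 94.4%, with 30.7% and 82.1% with the block, and 58.3% in control animals with quantile normalization. The interaction had 63 calls with the block and 4 by DESeq2, against 0. No member was called in these 3 comparisons under any setting. With the block, 1 of 16 stem cell regulators was called higher for arrest length on *daf-2* RNAi, as were 395 of all 12830 genes. Log2 differences near 0 changed sign: *glh-1* for RNAi in control animals (0.0268 with quantile normalization), and on *daf-2* RNAi *pgl-3* (0.0108 with quantile normalization) and *deps-1* (-0.00705 by edgeR, -0.0369 by DESeq2).

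Leaving out 1 library gave 728 to 2623 genes for starved EV against control EV, with 728 without control EV C, 802 without starved EV C, 879 without starved EV A and 897 without control EV B. It gave 747 to 2147 genes and 0 to 5 members for starved *daf-2* RNAi against starved EV, with 747 without starved EV C, 798 without starved *daf-2* RNAi B and 801 without starved EV A. The other ranges were 60 to 180 genes for RNAi in control animals, 28 to 195 for arrest length on *daf-2* RNAi, and 0 to 1 for the interaction. Signs of uncalled members turned in the ranges -0.11 to 0.0492 (*glh-1*), -0.0129 to 0.0876 (*pgl-1*) and -0.0268 to 0.11 (*pgl-2*) for RNAi in control animals, and -0.19 to 0.0350 (*glh-4*), -0.22 to 0.13 (*pgl-3*) and -0.0724 to 0.12 (*deps-1*) for arrest length on *daf-2* RNAi. Which property of these settings or libraries moved the counts was not tested. The spread of *pgl-2* in starved EV was 2.05%, below the counting error of 3.07%. For the other gene and group combinations the spread was larger than that error. Whether depth limited the precision of *pgl-2* was not tested.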
